A study of Mus musculus with 24 samples.

Results

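The autophagy and mitophagy genes examined here were Ulk1, Becn1, Atg5, Atg7, Map1lc3a, Map1lc3b, Gabarapl1, Sqstm1, Bnip3 and Tfeb, which are 10 of the 36413 gene names on an Agilent 1-colour mouse array. They were picked out by gene name from a set drawn up with earlier results of these data known, and every probe carrying one of the names was read. This gave 12 probes for 9 genes. Tfeb is absent under its current symbol and was found through its RefSeq accession under the older symbol Tcfeb, which made 13 probes for all 10 genes. All 13 probes were well above background on all 24 arrays and none was saturated.

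The arrays came from the left ventricles of 24 male mice, 6 in each group, with 1 array for each mouse. The groups were mice with the inducible cardiomyocyte-specific GLUT4 transgene given streptozotocin (mG4H STZ), mice labelled CON given streptozotocin (CON STZ), transgenic mice given citrate buffer (mG4H VEH) and CON mice given citrate buffer (CON VEH). Streptozotocin, a toxin of pancreatic beta cells, was given at 55 mg per kg on 5 consecutive days, and the design text places induction of the transgene 2 weeks after it and ends the study after 2 further weeks. The labels give no ages, do not state what CON mice carry or how the transgene is induced, and say that some mice had a sibling in another group without naming them.

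Autophagy delivers parts of a cell to the lysosome inside a double membrane, and mitophagy is the delivery of mitochondria. A kinase complex containing ULK1 and a lipid kinase complex containing Beclin 1 start the membrane, ATG7 and ATG5 attach small proteins of the LC3 and GABARAP families to it, and receptors such as p62 (Sqstm1) and BNIP3 hold the cargo against those proteins. In heart muscle the route removes worn mitochondria and is known to respond to insulin and to nutrient supply. A transcript level is not a measure of the flow through this route. The p62 and lipidated LC3 proteins are themselves degraded in the lysosome.

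Across both genotypes, STZ mice had more Sqstm1 transcript than VEH mice, with a log2 fold change of 0.66 ± 0.18 (standard error, SE), which is 1.58-fold. Sqstm1 alone of the 10 genes passed the test (limma, adjusted p = 0.0208). By itself neither genotype passed for Sqstm1 (adjusted p = 0.191 in mG4H and 0.256 in CON). In the average, Bnip3 (0.59 ± 0.19), Gabarapl1 (0.51 ± 0.18) and Atg5 (-0.24 ± 0.08) gave the next-smallest p-values and missed the threshold. The GLUT4 transgene moved none of the 10 genes past the threshold under either treatment. In 3 of the 12 STZ mice, 6 of the 10 genes had their 3 highest levels, and Atg5 had its 3 lowest. Without these 3 mice the averaged Sqstm1 difference was smaller, and Sqstm1 did not pass under every processing setting, as given below.

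Every level of a gene below is a log2 processed signal relative to the 75th percentile of its own array. Thus 0 is that percentile and a step of 1 is a doubling of signal. Summed marker levels are instead sums of the signals relative to that percentile on the linear scale, in which the brightest markers weigh most. Levels of different probes depend on the probes and are not set against each other. The array's own percentile lay between 370 and 583 signal units, and 58.5% to 76.3% of the gene spots on an array were well above background. Across the 24 mice neither of these measures, nor body weight, had a relation to a member that passed adjustment over the 20 relations computed for it within STZ and VEH mice (permutation tests). The arrays lay on 4 slides, of which slides 1 to 3 held arrays of all 4 groups and slide 4 held 1 array of each VEH group. The labels' blood glucose, with no unit given, lay between 500 and 601 in mG4H STZ mice and 600 and 601 in CON STZ mice. It was 131 to 152 in mG4H VEH mice and 117 to 164 in CON VEH mice. Whether 600 and 601 are a meter's upper limit is not stated, so the STZ ranges are not used to compare the genotypes. All 10 cardiomyocyte markers examined were above background on every array. The array's Slc2a4 probe, for the mouse gene of GLUT4, did not separate the genotypes: mG4H over CON gave log2 fold changes of 0.20 under STZ and -0.20 under VEH, so it does not check the genotype label.

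The genome upstream of 8 of the 10 genes was matched by symbol in RefSeq promoter sequences of build GRCm38.p6, each running from 250 bases before to 50 after a gene's start. Becn1 and Map1lc3a were not matched. The promoters of the 3 genes with the largest STZ differences, Sqstm1, Bnip3 and Gabarapl1, and of Atg5, whose difference was negative, are printed 5′ to 3′ so that the genes described below can be compared at sequence level. Capitals mark CACGTG, the E-box core of the CLEAR element that TFEB is known to bind.

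Sqstm1 promoter, chr11:50210771-50211070, minus strand: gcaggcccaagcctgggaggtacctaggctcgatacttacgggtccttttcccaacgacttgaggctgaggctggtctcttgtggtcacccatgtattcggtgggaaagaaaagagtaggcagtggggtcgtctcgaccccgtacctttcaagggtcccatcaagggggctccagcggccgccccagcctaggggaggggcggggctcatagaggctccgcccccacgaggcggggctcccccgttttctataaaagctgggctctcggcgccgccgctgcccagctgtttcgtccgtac
Bnip3 promoter, chr7:138909457-138909756, minus strand: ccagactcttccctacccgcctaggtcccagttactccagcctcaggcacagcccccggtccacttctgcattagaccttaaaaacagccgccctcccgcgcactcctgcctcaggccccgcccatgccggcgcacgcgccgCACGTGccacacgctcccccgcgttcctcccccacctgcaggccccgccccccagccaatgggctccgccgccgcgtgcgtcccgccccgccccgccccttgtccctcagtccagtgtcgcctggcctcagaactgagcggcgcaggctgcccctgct
Gabarapl1 promoter, chr6:129532942-129533241, plus strand: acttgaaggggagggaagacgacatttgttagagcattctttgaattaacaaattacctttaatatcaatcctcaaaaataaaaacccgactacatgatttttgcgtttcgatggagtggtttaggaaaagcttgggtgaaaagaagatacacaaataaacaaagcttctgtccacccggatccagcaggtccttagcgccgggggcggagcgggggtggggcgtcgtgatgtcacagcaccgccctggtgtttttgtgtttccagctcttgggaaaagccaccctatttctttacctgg
Atg5 promoter, chr10:44268089-44268388, plus strand: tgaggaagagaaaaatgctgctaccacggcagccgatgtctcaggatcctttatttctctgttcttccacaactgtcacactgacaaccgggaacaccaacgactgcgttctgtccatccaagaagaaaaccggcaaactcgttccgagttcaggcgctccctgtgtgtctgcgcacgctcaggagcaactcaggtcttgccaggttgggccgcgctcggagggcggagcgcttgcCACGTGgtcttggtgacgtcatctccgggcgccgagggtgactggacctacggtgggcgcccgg

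Each promoter of all 32851 in the reference set was searched on both strands. CACGTG was present in 7.15% of them, and among the 8 matched genes it was present in Bnip3 (from base 143 of 300), Atg5 (from base 237) and Atg7 (from base 119). The longer TCACGTGA, present in 0.974% of all promoters, and the forkhead core TGTTTAC, present in 3.65%, had no match in the 8 genes. The antioxidant response core TGACNNNGC, present in 12.4% of all promoters, had 1 match among them, in Map1lc3b from base 255, after the start. The hypoxia response core ACGTG, present in 19.6% of all promoters and contained in every CACGTG, was found in Bnip3, Atg5 and Atg7 at the CACGTG sites. Sqstm1 and Gabarapl1 held none of these letters in this window. A match describes the letters only and is not evidence of a bound site.

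Sqstm1 encodes p62, the receptor that binds ubiquitin-tagged cargo and LC3. In mG4H mice its lowest, median and highest levels were 1.56, 2.46 and 3.88 under STZ, against 1.72, 1.95 and 1.99 under VEH. In CON mice they were 2.26, 2.47 and 3.33 under STZ, against 1.78, 1.94 and 2.26 under VEH. In each genotype 5 of 6 STZ mice lay above every VEH mouse of that genotype, and 1 mG4H STZ mouse lay below all of its VEH mice. The log2 fold change for STZ over VEH was 0.72 ± 0.25 in mG4H (adjusted p = 0.191) and 0.59 ± 0.25 in CON (adjusted p = 0.256), in limma's fit over 28237 genes. Averaged over both genotypes, with 12 mice a side, it was 0.66, with a 95% interval of 0.29 to 1.03 and the adjusted p of 0.0208 given above. The SEs of the 2 genotypes are equal because the fit uses 1 spread for all 4 groups. The SDs of Sqstm1 were 0.80 in mG4H STZ, 0.11 in mG4H VEH, 0.39 in CON STZ and 0.17 in CON VEH mice. With SDs this unequal, the adjusted p-values of the 2 genotypes do not rank them. Within slides 1, 2 and 3 the difference in group means was 1.17, 0.07 and 1.06 in mG4H and 0.31, 0.52 and 0.93 in CON. All were positive, but each compared only 2 STZ mice with 1 or 2 VEH mice. The values of 1.17, 1.06 and 0.93 each include 1 of 3 STZ mice that lie apart, described below. In whole-ventricle RNA a change in the number of cells of a type and a change in RNA per cell cannot be told apart.

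The 3 genes whose levels ran closest to those of Sqstm1 over the 24 arrays, after each slide's mean was removed, were Tmem50a, Pygb and Atoh8, each with a Pearson r of 0.97. Pygb encodes the brain form of glycogen phosphorylase. These r values include 3 STZ mice that lie apart, described below, and without them the r values over 21 arrays were 0.87, 0.91 and 0.91. This is a likeness of levels over arrays that share their scaling, not a test.

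BNIP3 is an outer mitochondrial membrane protein that recruits LC3 to mitochondria. The array holds 3 probes for it, all on the minus strand within chr7 of mm9, and the 2 brighter ones also list predicted transcript models in the array's annotation. The first 30 of the 60 bases of each are shown, since the 3 probes read 1 gene at neighbouring places and did not fall on one side of the threshold.

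Bnip3 probe 1 (stands for the gene), chr7:146082760-146082819, minus strand: ccattaatcaggatccaaagctgcttaaat
Bnip3 probe 2, chr7:146082640-146082699, minus strand: ctgtcccacacttaactcaggtgtgctaaa
Bnip3 probe 3, chr7:146082536-146082595, minus strand: ggagcaagatcctacaggatgtaatagtca

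On probe 1 the lowest, median and highest Bnip3 levels in mG4H mice were 6.74, 7.46 and 8.33 under STZ, against 6.62, 6.92 and 7.30 under VEH. In CON mice they were 6.99, 7.31 and 8.77 under STZ, against 6.68, 6.85 and 7.03 under VEH. Of the STZ mice, 3 of 6 in mG4H and 5 of 6 in CON lay above all VEH mice of their genotype. The log2 fold change averaged over genotypes was 0.59 ± 0.19 (adjusted p = 0.0541). Taken probe by probe, with p adjusted over all 39769 kept probes, probe 2 gave 0.61 (adjusted p = 0.0310), probe 3 gave 0.88 (adjusted p = 0.0317) and probe 1 gave 0.59 (adjusted p = 0.0606). All 3 Bnip3 probes thus had a positive difference, and 2 of them passed.

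GABARAPL1, LC3A and LC3B are members of the Atg8 family, the small proteins that are joined to lipid in the growing membrane. Gabarapl1 levels in mG4H mice were 6.15, 6.64 and 8.04 (lowest, median, highest) under STZ, against 6.16, 6.34 and 6.40 under VEH. In CON mice they were 6.39, 6.65 and 7.88 under STZ, against 6.21, 6.36 and 6.51 under VEH. Thus 4 of 6 mG4H STZ mice and 5 of 6 CON STZ mice lay above all VEH mice of their genotype, and the groups overlapped. The averaged log2 fold change was 0.51 ± 0.18 (adjusted p = 0.0707), with 0.55 in mG4H and 0.48 in CON.

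The 2 LC3 genes differed less. Map1lc3b had an averaged log2 fold change of 0.17 (95% interval -0.03 to 0.38, adjusted p = 0.326) and Map1lc3a one of 0.11 (95% interval -0.05 to 0.28, adjusted p = 0.463). Map1lc3b levels reached 6.05 in mG4H STZ mice, against 5.36 in mG4H VEH mice, and 5.84 in CON STZ mice, against 5.32 in CON VEH mice. In each genotype 3 STZ mice lay above all VEH mice for Map1lc3b and 1 lay below them.

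**Figure D1:**
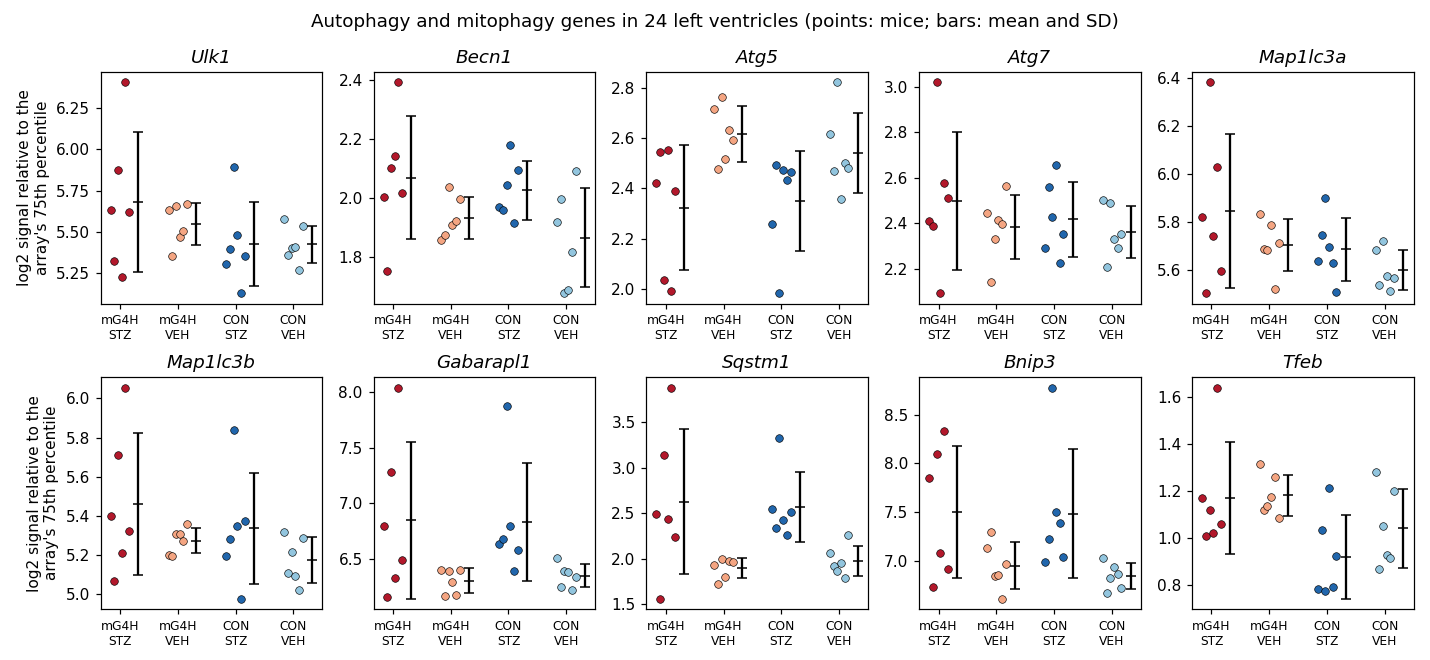
Levels of the 10 genes in each mouse (log2 processed signal relative to the array's 75th percentile), 1 panel a gene, with group means and SDs (n = 6 each). STZ mice of both genotypes spread upward for Sqstm1, Bnip3 and Gabarapl1, with single mice at 3.88, 8.77 and 8.04, and downward for Atg5.

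ATG5 and ATG7 belong to the machinery that joins Atg8 proteins to lipid, ATG7 as the activating enzyme and ATG5 as part of the complex that completes the transfer. Atg5 levels in mG4H mice were 1.99, 2.41 and 2.55 (lowest, median, highest) under STZ, against 2.48, 2.61 and 2.76 under VEH. In CON mice they were 1.98, 2.45 and 2.49 under STZ, against 2.36, 2.49 and 2.82 under VEH. Of the STZ mice, 4 of 6 in mG4H and 2 of 6 in CON lay below all VEH mice of their genotype. The averaged log2 fold change was -0.24 ± 0.08 (adjusted p = 0.0549), with -0.29 in mG4H and -0.19 in CON. Atg7 gave 0.09 ± 0.08 (adjusted p = 0.645) on its brighter probe and 0.13 ± 0.10 on its dimmer one, which lies at another place in the gene.

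Among the genes that start the membrane, Ulk1, the initiating kinase, had an averaged log2 fold change of 0.07 (95% interval -0.15 to 0.29), and Becn1, the scaffold of the lipid kinase complex, one of 0.15 (95% interval 0.01 to 0.28, adjusted p = 0.170). Becn1 levels lay between 1.75 and 2.39 in mG4H STZ mice, against 1.86 to 2.04 in mG4H VEH mice, and between 1.91 and 2.18 in CON STZ mice, against 1.68 to 2.09 in CON VEH mice. The Becn1 groups overlapped throughout. Tfeb, the transcription factor of lysosomal and autophagy genes, had an averaged log2 fold change of -0.07 (95% interval -0.22 to 0.09, adjusted p = 0.711).

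Counted together, none of the 10 genes passed in mG4H, where 0.266% of all 28237 genes did, and none in CON, where 3.96% did. By unadjusted p under 0.05, 3 of the 10 were lower than that limit in mG4H (Sqstm1, Atg5 and Gabarapl1) and 2 in CON (Sqstm1 and Bnip3), where 3955 and 4026 of the 28237 genes were. Averaged over genotypes, 1 of 10 passed, beside 10.3% of all genes, with 4.51% of all genes higher and 5.78% lower, so the members' share was near that of all genes. At an unadjusted p under 0.05 there were 5 of 10, beside 22.3% of all genes. The median log2 fold change over the 10 genes was 0.14 in mG4H, 0.12 in CON and 0.13 averaged, beside 0.06, 0.03 and 0.05 over all genes. In each genotype 8 of the 10 had a positive log2 fold change, beside 17075 of the 28237 genes in mG4H and 15593 in CON.

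**Figure D2:**
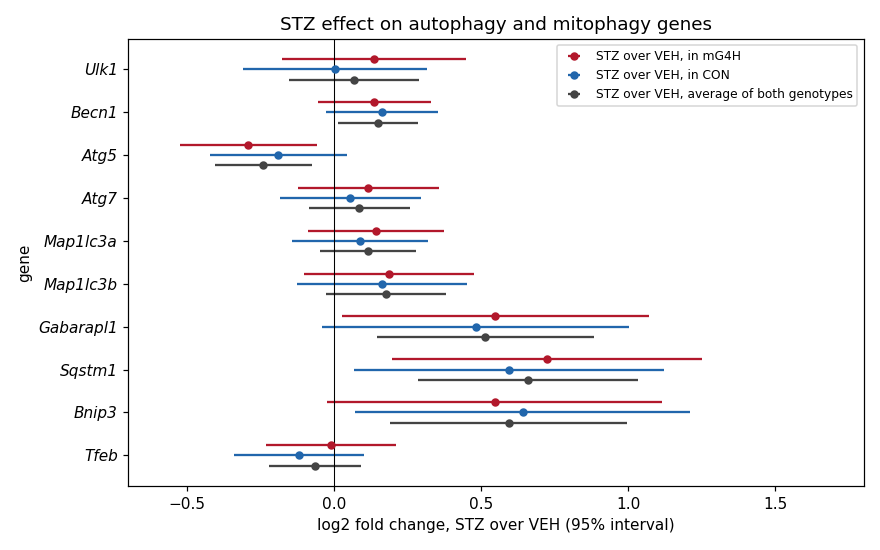
Log2 fold changes for STZ over VEH with 95% intervals from limma, in mG4H, in CON and averaged over both genotypes. Sqstm1 averages 0.66 with an interval of 0.29 to 1.03, and Atg5 averages -0.24.

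The transgene was compared next, as the question of the design is what added glucose uptake does in the diabetic and the non-diabetic heart. For mG4H over CON, none of the 10 genes passed under STZ, where 0.0106% of all genes did, and none under VEH, where 0.0815% did. At an unadjusted p under 0.05 there was 1 of the 10 genes under STZ, beside 3.55% of all genes, and 0 under VEH, beside 2.87%. That gene was Tfeb, with 1.01, 1.09 and 1.64 (lowest, median, highest) in mG4H STZ mice, against 0.77, 0.86 and 1.21 in CON STZ mice. Its log2 fold change was 0.25 ± 0.11 (unadjusted p = 0.0285), and the highest of its mG4H STZ values was 1 mouse far above the other 5. Ulk1 had a log2 fold change of 0.26 ± 0.15 under STZ and 0.12 ± 0.15 under VEH. The SE is the same because the fit uses 1 spread shared by all 4 groups. The SDs of Ulk1 were 0.42 in mG4H STZ and 0.26 in CON STZ mice, against 0.13 in mG4H VEH and 0.11 in CON VEH mice.

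The difference between the STZ effects (mG4H minus CON) was 0.13 for Sqstm1 (95% interval -0.62 to 0.88), -0.09 for Bnip3 (-0.90 to 0.71) and 0.07 for Gabarapl1 (-0.67 to 0.81). None of the 10 genes passed for this difference, nor did any of the 28237 genes (0% called in limma, with 501 genes at an unadjusted p under 0.05 and 0 of the 10 among them). The intervals are wide enough to hold differences as large as the STZ effects themselves.

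The STZ mice varied more than the VEH mice. The SD of Gabarapl1 was 6.24 times as large in STZ as in VEH mice of mG4H and 5.05 times in CON. For Sqstm1 the ratios were 7.26 and 2.29, and for Bnip3 2.82 and 4.93. Over all genes the median ratio was 1.46 in mG4H and 1.21 in CON, and Gabarapl1 exceeded 97.2% of all genes in mG4H and 98.3% in CON. Becn1 had the opposite order in CON, with a ratio of 0.594. These ratios rest on 6 mice a group and were not tested.

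The values farthest from the VEH mice were those of 3 mice, mG4H STZ replicates 3 and 5 and CON STZ replicate 3. Their Gabarapl1 levels were 7.28, 8.04 and 7.88, against at most 6.80 in the other 9 STZ mice. Their Sqstm1 levels were 3.14, 3.88 and 3.33, and their Bnip3 levels 8.10, 8.33 and 8.77. For Map1lc3a, Map1lc3b, Gabarapl1, Sqstm1, Bnip3 and Ulk1 these were the 3 highest of the 12 STZ mice, and for Atg5, with 2.04, 1.99 and 1.98, the 3 lowest. Becn1, Atg7 and Tfeb did not follow, with 1, 2 and 1 of these mice among the 3 highest.

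**Figure D3:**
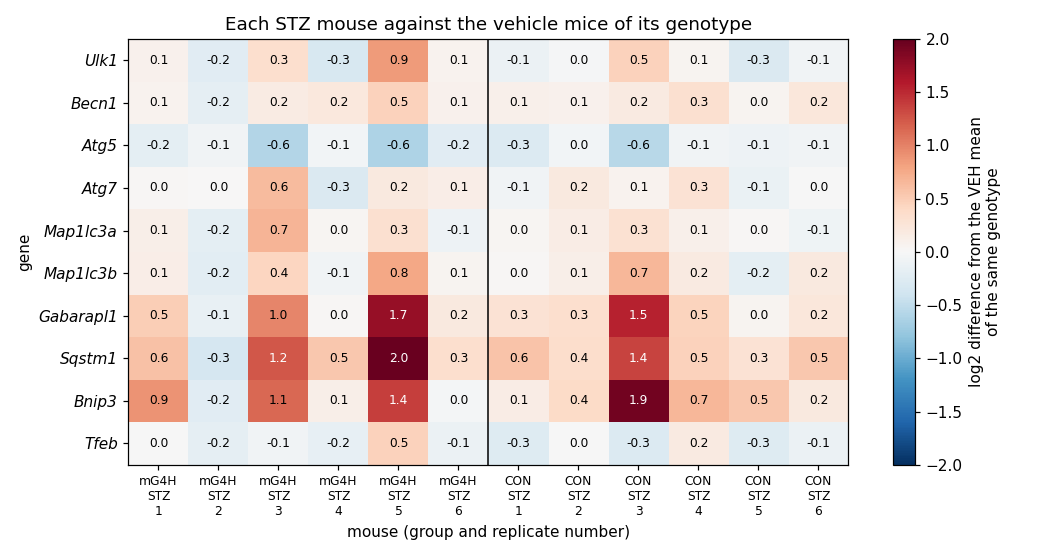
Difference of each STZ mouse from the mean of the VEH mice of its genotype (log2 units), with genes in rows and mice in columns. mG4H STZ replicates 3 and 5 and CON STZ replicate 3 stand out in Gabarapl1, Sqstm1 and Bnip3, and in the other direction in Atg5.

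These 3 arrays were also the 3 farthest of the 24 from the rest of their group over all genes, with a median absolute distance of 0.376, 0.423 and 0.455 log2 units for mG4H STZ 3, mG4H STZ 5 and CON STZ 3. They lay on slides 3, 1 and 3, and their body weights were 21.1, 24.7 and 24.0, within the 21.1 to 28.1 of all STZ mice. Their summed level of 7 adipocyte markers, on the linear scale, was 404, 412 and 472. These were the 3 highest of the 11 STZ arrays on which all of these markers had a value. No other list of cell type markers had these mice as its 3 highest. Among the 12 STZ mice, with 1 as the highest, their ranks in 10 cardiomyocyte markers were 2, 6 and 1. The ranks were 5, 9 and 12 in fibroblast, 12, 6 and 10 in endothelial and 6, 9 and 2 in macrophage markers. In erythroid markers mG4H STZ 3 was the lowest of the 12, at 31.3 against 209 to 1019 in the other 11. The part of these measures in the result was not tested.

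Without these 3 arrays, an exclusion chosen after the data were seen, Sqstm1 had an averaged log2 fold change of 0.36 ± 0.10 (adjusted p = 0.0205), against 0.66 with all 24 arrays, and in CON passed by itself, at 0.44 ± 0.13 (adjusted p = 0.0418). In mG4H Sqstm1 was then 0.28 ± 0.14 (adjusted p = 0.670). The averaged values of Bnip3 (0.29, adjusted p = 0.167), Gabarapl1 (0.21, adjusted p = 0.0904) and Atg5 (-0.13, adjusted p = 0.220) likewise lay nearer to 0 than with all 24 arrays, and did not pass. Map1lc3b came to 0.02. One further mouse, mG4H STZ 2, lay at the low end, with Sqstm1 at 1.56 and Gabarapl1 at 6.15, both the lowest of the STZ mice. Over the 24 fits that each left out 1 array, the mG4H difference in Sqstm1 lay between 0.47 and 0.94 and passed in 1, the fit without this mouse (adjusted p = 0.0377). Leaving out the lowest mouse of a group raises its mean by construction, so that value is a description. Leaving out the 3 STZ mice highest in Sqstm1 likewise lowers the STZ mean and narrows the spread by construction. The p-values without those 3 arrays are thus a description too, not a further test.

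Because 3 mice lie apart, no correlation over all 12 STZ mice is given. The other 9 were set apart by the levels of these same genes after the data were seen. The adjusted p-values for these 9 do not allow for that choice, so they are a description. Among the other 9 STZ mice, 3 of the 45 pairs of genes passed by Pearson's r and 1 by both r and Spearman's rho, after adjustment over 135 relations (permutation tests within genotype). That pair was Ulk1 and Atg7, with r = 0.83 (adjusted p = 0.0115) and rho = 0.83 (adjusted p = 0.0478), and r fell to 0.59 without the 2 mice farthest in Ulk1. Map1lc3b and Gabarapl1 gave r = 0.83 (adjusted p = 0.0480) and rho = 0.80 (adjusted p = 0.125) there. Among the 12 VEH mice, 2 of 45 pairs passed by both measures. Gabarapl1 and Ulk1 gave r = 0.85 (adjusted p = 0.0174) and rho = 0.87 (adjusted p = 0.0250), and Sqstm1 and Ulk1 gave r = 0.82 (adjusted p = 0.0135) and rho = 0.82 (adjusted p = 0.0478). Without the 2 mice farthest on the first gene these r values were 0.76 and 0.85. All these levels share the scaling of their array.

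**Figure D4:**
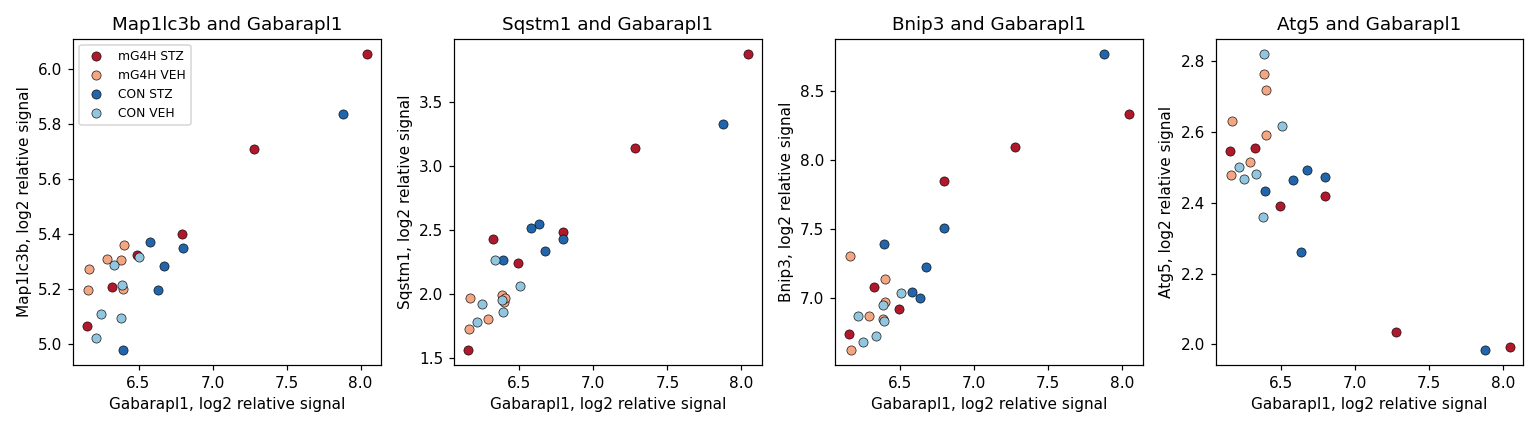
Levels of Map1lc3b, Sqstm1, Bnip3 and Atg5 against Gabarapl1, 1 point a mouse (log2 relative signal on both axes, colours by group). The 3 STZ mice with Gabarapl1 at 7.28, 7.88 and 8.04 lie at the top of the first 3 panels and at the bottom of the Atg5 panel.

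The wider pathway was read through 12 lists with 154 measured genes besides the 10. In mG4H 0 rose and 2 fell, 1.30% of the 154 against 0.266% of all genes. In CON 4 rose and 5 fell, 5.84% against 3.96%. Averaged over genotypes 11 rose and 6 fell, which is 17 of 154 against 10.3% of all genes, with a median log2 fold change of 0.05 beside 0.05 over all genes. No list gene passed for mG4H over CON under either treatment or for the difference between STZ effects.

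In the lists of the initiation and lipid kinase complexes, Atg13 (listed on the array as D2Ertd391e), a partner of ULK1, rose in STZ mice by 0.75 (adjusted p = 0.0110) in the average of both genotypes. Uvrag, a Beclin 1 partner, rose by 0.56, and Bcl2l1, which encodes Bcl-xL, a protein that binds Beclin 1, rose by 0.89. Pik3r4, which encodes the VPS15 subunit of the same lipid kinase, fell by 0.42, with means of 1.88 ± 0.18 in mG4H STZ against 2.27 ± 0.05 in mG4H VEH mice and 1.83 ± 0.13 in CON STZ against 2.29 ± 0.07 in CON VEH mice (SD, n = 6 each). Pik3r4 fell in each genotype by itself, by 0.39 in mG4H (adjusted p = 0.0442) and 0.46 in CON (adjusted p = 0.00214). Among the other genes of membrane growth, Tmem41b, a lipid scramblase, fell by 0.46 and Atg4d, a protease of Atg8 proteins, by 0.34.

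Of the 11 other cargo receptors 1 passed: Fam134b, a receptor for endoplasmic reticulum, rose by 1.16 (adjusted p = 0.0121). Its means were 4.21 ± 1.27 in mG4H STZ against 2.89 ± 0.18 in mG4H VEH mice, and 4.17 ± 0.73 in CON STZ against 3.15 ± 0.18 in CON VEH mice (SD, n = 6 each). Of the 14 mitophagy receptors and regulators 1 passed: Fundc1, a mitochondrial receptor for LC3, fell by 0.26.

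Lysosomal genes held 4 that rose and 1 that fell among 25. Cd63 and Scarb2, both membrane proteins of the lysosome, rose by 0.44 and 0.41, and Ctsz, a cathepsin, by 0.33. Sgsh, a sulfatase of heparan sulfate breakdown, fell by 0.37, while its other probe gave -0.11 (adjusted p = 0.561). Of 16 vacuolar ATPase subunits Atp6v1h rose by 0.39, and of 14 transcription factors Hif1a rose by 0.34. In the list of mTORC1 and AMPK signalling, Trib3 rose by 0.51 and Ddit4l, an inhibitor of mTORC1, fell by 0.58. Ddit4l fell by 0.58 in mG4H and 0.58 in CON as well (adjusted p = 0.0173 and 0.00258). Sesn3, a sestrin, fell in CON by 0.54, with -0.28 in the average of both genotypes, which missed the threshold. The 12 autophagosome-lysosome fusion genes and the 2 other Atg8 family members had none past the threshold. Without the 3 arrays named above, the averaged log2 fold changes were smaller for Fam134b (0.64), Bcl2l1 (0.46), Atg13 (0.44) and Uvrag (0.32). In that fit, which is a description as stated above, these 4 genes still passed. In mG4H by itself Pik3r4 and Ddit4l missed the threshold there (adjusted p = 0.0762 and 0.0585).

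**Figure D5:**
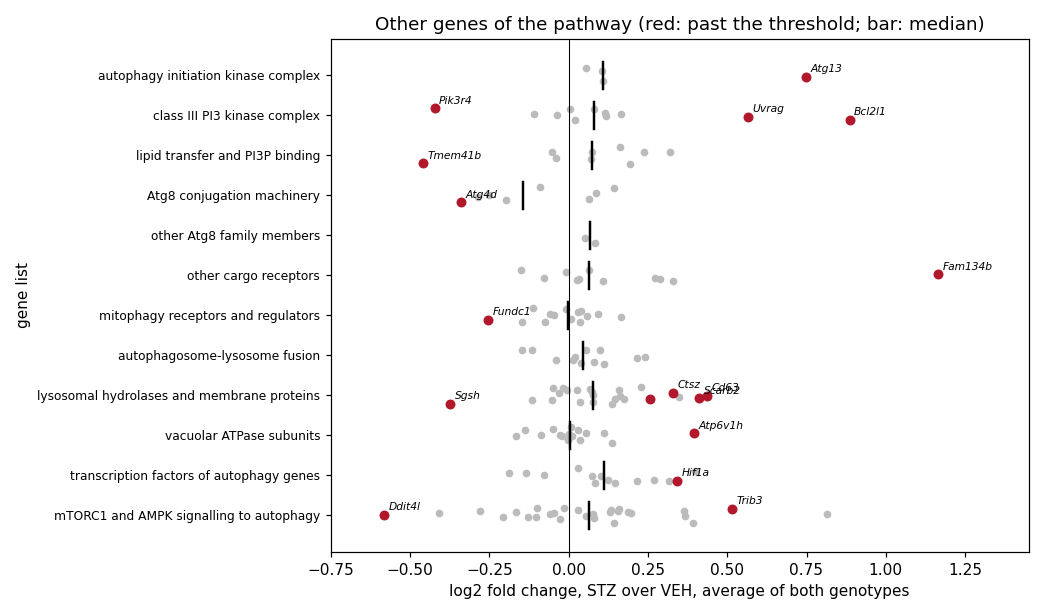
Log2 fold changes for STZ over VEH, averaged over both genotypes, for the 154 other pathway genes in 12 lists, with list medians as bars and genes past the threshold in red, of which up to 4 a list are named. Fam134b lies farthest to the right at 1.16 and Ddit4l farthest to the left at -0.58.

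Of 62 cell type markers 6 passed in the average of both genotypes, 9.68% beside 10.3% of all genes, a share near that of all genes. In that average, 2 of 9 macrophage markers, 2 of 8 fibroblast markers and 1 of 7 adipocyte markers rose, 1 of 6 lymphocyte markers fell, and none of the cardiomyocyte, endothelial, smooth muscle, atrial or erythroid markers passed. The summed macrophage level, on the linear scale, was 52.3 to 66.1 in mG4H STZ against 48.0 to 56.8 in mG4H VEH mice. It was 62.1 to 79.1 in CON STZ against 49.7 to 59.0 in CON VEH mice. The part of these cells in the levels of the autophagy genes was not tested.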

How the data were processed

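RNA of each left ventricle was labelled with Cy3 per the labels, and 1-colour Agilent arrays were read with Agilent Feature Extraction 10.5.1.1 per the file headers. The submitters' processing notes also name limma. The deposited files give a processed signal intensity for each spot, which per the file headers is background-subtracted and detrended but not scaled between arrays, and the raw and background intensity beside it. Probe positions are on mm9, per the file headers.

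Here the deposited intensity was taken to log2 and reduced by its array's own 75th percentile. Outlier-marked spots were left out and repeated spots averaged. Probes well above background on at least 6 of 24 arrays were kept (39769 of 55681), and the brightest probe was used for each of the resulting 28237 genes.

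All arrays were fitted with 4 group means in limma 3.58.1 (R 4.3.3). Tests were two-sided, with Benjamini-Hochberg adjustment over all genes and a threshold of 0.05. There were 6 contrasts, namely STZ over VEH in each genotype and averaged, mG4H over CON in STZ and in VEH mice, and the difference of the 2 STZ effects. The fit was tested on simulated arrays with 50 changed genes for each size of change. A true log2 change of 0.5 was called in 32% in mG4H, 24% in CON and 40% averaged. For a change of 1 it was 56%, 56% and 70%. Of the calls, 2.14%, 5.76% and 3.16% were false. On the simulated arrays changes of 0.5 and 1 were thus often missed. These arrays had far fewer changed genes than the 2905 called in the averaged data, so the rates are not those of the real fit. Relations between genes used 100000 permutations within genotype. The number of arrays limits the precision. Shared litters were not modelled.

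The 10 genes and all lists were chosen with earlier results of these data known. Named pathway genes are up to 4 of each list past the threshold with the smallest adjusted p. The genes most like Sqstm1 are the 3 with the highest Pearson r. Exons were not assigned to probes. Some list genes that were counted are not reported here by name. Alternatives were other scalings, background corrections and filters, other uses of several probes, other variance settings, slide, replicate number or body weight in the fit, and each array left out in turn.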

Additional observations from a re-analysis of the deposited data

Results flagged for a closer look

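Of the 40 combinations of a gene and a group of 6 mice, 4 held a mouse far from the other 5 by Dixon's criterion at 95%, and chance marks about 1 in 20 groups. CON STZ replicate 3 was the farthest in 3 of them: Gabarapl1 at 7.88, with the next mouse at 6.80, Sqstm1 at 3.33, with the next at 2.55, and Bnip3 at 8.77, with the next at 7.50. The fourth was Tfeb in mG4H STZ replicate 5, at 1.64, with the next mouse at 1.17. These are values relative to each array's 75th percentile on the log2 scale.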

How the results depend on the processing

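In the average of both genotypes, 1 of the 10 genes (Sqstm1) passed. That count was 3 with quantile normalization, 0 with median scaling, 2 with normexp background correction, 3 with probes above background on all 24 arrays, 2 with the mean of all probes, 3 with array weights, 4 with a trended robust prior, 2 with slide as a random block and 0 with body weight as a covariate. The cause was not tested for any of these. The median body weight was lower in STZ mice. The fit with body weight therefore cannot separate a difference linked to weight from one linked to STZ. Leaving out single arrays gave counts of 1 to 4, with 2 without CON VEH 4, CON STZ 1, CON STZ 6 or mG4H STZ 6 and 4 without mG4H STZ 2 or mG4H STZ 4. Sqstm1 passed in 14 of 16 settings, 2 of them (slide as a block with normexp, and without the 3 arrays farthest from their group) chosen after the data were seen and the second of these giving the lowest value, at log2 fold changes of 0.36 to 0.67, and in 24 of 24 fits without 1 array, at 0.53 to 0.77. With median scaling and with body weight it was 0.58 (adjusted p = 0.311) and 0.55 (adjusted p = 0.444). Bnip3 passed in 7 of 16, Gabarapl1 in 3 and Atg5 in 2.

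In CON the count was 0 in every setting other than the fit without the 3 arrays farthest from their group, chosen after the data were seen, where it was 1. In mG4H the counts without single arrays ran from 0 to 1. For mG4H over CON and for the difference between STZ effects the count stayed 0 in all settings. Over all genes, the averaged contrast called 333 to 3757 genes, beside 2905 in the fit reported. The 154 pathway genes had 1 call with median scaling and 4 with body weight, beside 17. Within a genotype there was 1 setting more, a fit of the groups compared by themselves. Of these 17 settings, Tmem41b in CON passed in 9, Sesn3 in CON in 11 and Pik3r4 in mG4H in 9, and of 24 fits without 1 array they passed in 7, 17 and 6.

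Replicate numbers were not taken to pair the mice. The deviations of same-numbered mice correlated above 0.1 in 16 of 36 pairs (-0.60 to 0.66). Their mean correlation was 0.02, against -0.004 for other numbers. In another group, the closest array had the same number for 9 of 24 arrays, and the number expected by chance was not worked out. With the replicate number as a block 1 of 10 genes passed in the average (Sqstm1, adjusted p = 0.0227) and 0 elsewhere.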
